A study of Danio rerio with 12 samples.

Results

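The 10 genes described here mark the vascular endothelium, the cell layer that lines blood vessels, and were followed through bulk RNA sequencing of zebrafish whole kidney marrow. They are kdr, kdrl, vwf, egfl7, cdh5, tie1, tek, flt1, fli1a and stab2. All 10 were found by symbol, fli1a listed there as fli1, in the table of 32105 genes, and all 10 were among the 18370 genes with enough counts to be tested. Each library held poly(A) RNA from the dissected kidney of 1 animal, whose age, sex and strain the labels do not give. There were 4 genotypes with 3 animals each, namely wild type, prkdc mutants, il2rga mutants and animals carrying both mutations, called double mutants here. For the mutants, the series' text names the alleles prkdc(D3612fs) and il2rga(Y91fs). The product of prkdc is the kinase DNA-PKcs, which acts in the joining of antigen receptor genes, and il2rga encodes the common gamma chain of several interleukin receptors. No vessel-specific promoter or deletion was part of the design, and both genes were disrupted in the whole animal as far as the labels say.

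Vessels are held and shaped by a small set of endothelial proteins. Vascular endothelial growth factor (VEGF) acts through receptor tyrosine kinases, which in zebrafish include the products of kdr, kdrl and flt1. Of these, flt1 is known as a decoy that limits signalling. The angiopoietin system uses the receptor tek, also called TIE2, and its partner tie1. The adhesion protein VE-cadherin, from cdh5, joins neighbouring endothelial cells, and fli1a encodes an ETS-family transcription factor of endothelial and blood cells. The secreted protein of egfl7 lies in the vessel wall matrix, vwf encodes the clotting protein von Willebrand factor, and stab2 encodes a scavenger receptor of venous and sinusoidal endothelium. In the kidney marrow, blood forms in the tissue around the tubules, among thin-walled sinusoids.

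Total counts per library ran from 4756244 to 10311377, and the smallest count of any of the 10 genes in any library was 79, for egfl7 in prkdc mutant 2. Of the 10 genes, 6 overlap another annotated gene in a RefSeq table of a later assembly (kdr, vwf, egfl7, cdh5, tie1 and stab2). For 2 of these, kdr and vwf, the other gene is protein-coding. The annotation used for the counting was not checked for these overlaps and its strand setting is not given, so reads there may be shared. The targeted gene il2rga followed the labels, with 34.1 to 61.4 CPM (counts scaled to the library total with TMM factors) in the 6 libraries without its mutation and 1.71 to 6.17 CPM in the 6 with it. The level of prkdc was 50.1 to 62.8 CPM in wild type, 16.04 to 23.3 CPM in prkdc mutants, 22.1 to 34.2 CPM in il2rga mutants and 17.8 to 19.2 CPM in double mutants. Kidney tubule genes were plentiful in all libraries (10 genes, summed level 6658 to 11876 CPM). With the il2rga mutation 1 of the 10 fell, slc22a2, by 1.30 ± 0.27, and 1 rose, slc12a3, by 1.63 ± 0.26 (edgeR, adjusted p = 0.00653 and 0.00197). Of 8 macrophage genes 4 rose and 1 fell, where 14.4% of all genes tested were called higher and 13.3% lower. Of 16 liver genes, 15 could be tested, and 14 rose with the il2rga mutation. Summed, they reached 142 to 219.6 CPM in wild type libraries and 137 to 168 CPM in those of prkdc mutants. The sums were 275 to 5538 CPM in il2rga mutants and 1649 to 15693 CPM in double mutants. The haptoglobin gene hp was the 1 liver gene at 0 in all wild type libraries. Of 13 tested ovary and yolk genes 6 rose, with a summed level of 16.8 to 91.1 CPM in wild type and 59.6 to 4712 CPM in double mutants. A list of 32 genes written down as having very long transcripts, with no check of their lengths, was low in the same 6 libraries. The list includes prkdc, which is itself mutated in 2 of the 4 genotypes. Its summed level was 5477 to 5980 CPM in wild type, 4374 to 5650 CPM in prkdc mutants, 2131 to 3853 CPM in il2rga mutants and 2427 to 3381 CPM in double mutants. Of its 31 tested genes, 25 fell with the il2rga mutation, with a median log2 fold change of -0.87. The part of liver, ovary and very long transcripts in the endothelial results was not tested beyond the fits with and without liver-rich libraries given below. In such bulk tissue, fewer endothelial cells, less RNA per endothelial cell and a larger share of RNA from other cells cannot be told apart.

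The first question was which vessel genes differed when il2rga was lost. The 6 libraries with the il2rga mutation were compared with the 6 without it, averaging over the prkdc genotype. Of the 10 genes, 6 fell (kdr, cdh5, flt1, vwf, tie1 and kdrl), 2 rose (egfl7 and stab2), and tek and fli1a did not pass. The median log2 fold change of the 10 was -0.61, against 0.05 for all genes tested. Over all 18370 genes, 13.3% were called lower and 14.4% higher by the same rule (edgeR quasi-likelihood test, Benjamini-Hochberg adjusted p under 0.05). The 10 genes were chosen with earlier results of these data known, so these shares are description only.

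**Figure D1:**
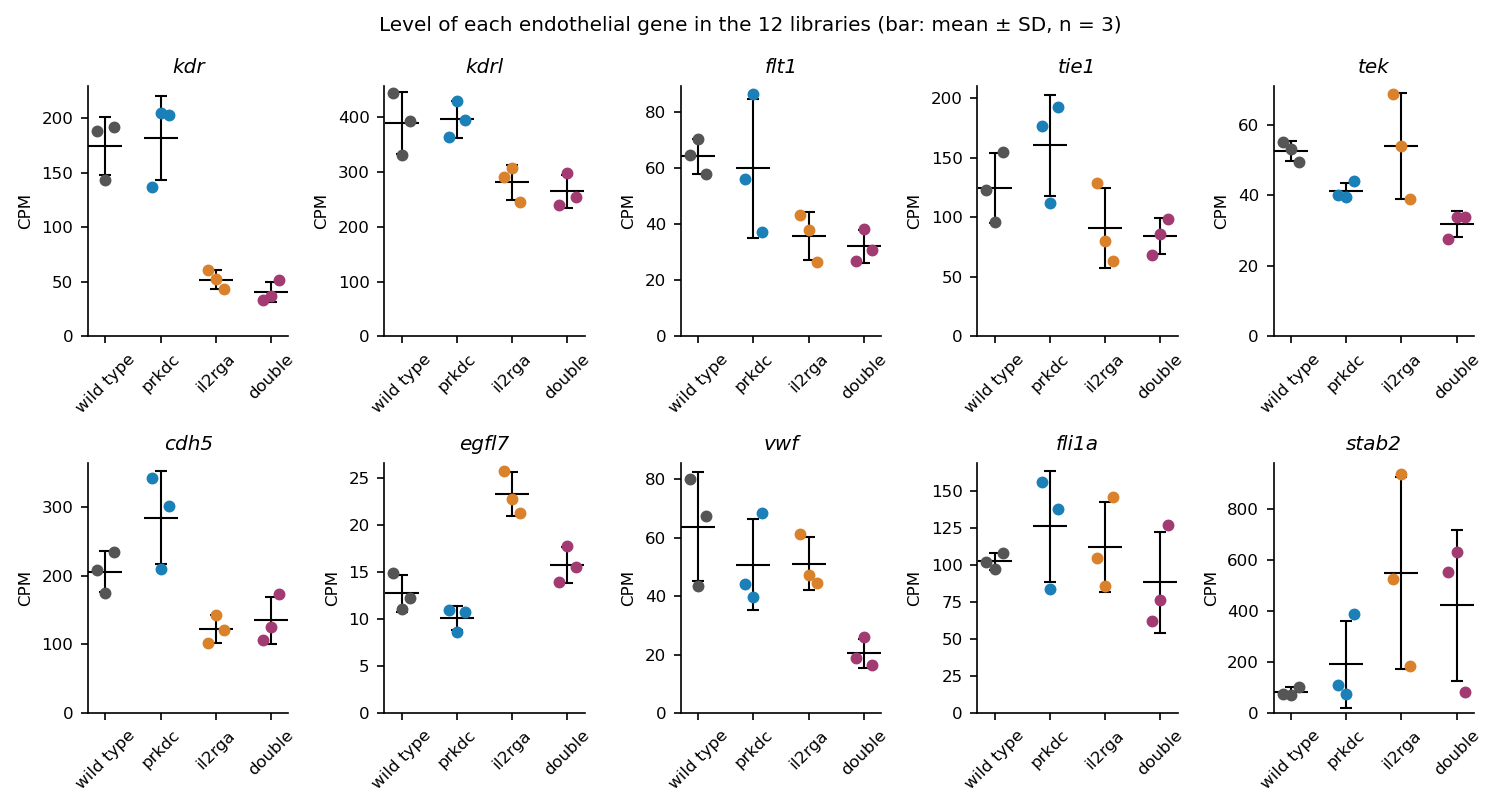
Level of the 10 endothelial genes in each library, in CPM on a linear axis from 0, by genotype. Points are single animals, and bars give the mean ± SD of 3. In kdr, kdrl and cdh5 all 6 libraries with the il2rga mutation lie below all 6 without it, as for 6.74% of all genes tested.

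Among the VEGF receptors, kdr changed most. Its level was 188, 143 and 191 CPM in wild type 1 to 3, then 137, 204 and 203 CPM in prkdc mutant 1 to 3. It was 60.7, 52.3 and 43.4 CPM in il2rga mutant 1 to 3, and 33.3, 37.3 and 51.5 CPM in double mutant 1 to 3. All 6 mutant libraries lay below the other 6, with a gap from 60.7 to 137 CPM. Groups of 6 lay apart this way for 6.74% of all genes tested. kdr fell by 1.95 ± 0.17 on the log2 scale (edgeR, adjusted p = 0.000166), to 25.9% of its level without the mutation. With the 4 liver-richest libraries set aside, so that il2rga mutant 3 and double mutant 3 stood for the mutation, kdr had -1.91 ± 0.24 (edgeR, adjusted p = 0.0198). With the mean of the liver genes as a covariate it was -1.95 ± 0.36, which did not pass (edgeR, adjusted p = 0.0754). kdr kept its call in each of the 12 fits that left out 1 library.

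The paralogue kdrl, long used as an endothelial marker in zebrafish, moved by far less. It stood at 444, 331 and 394 CPM in wild type fish, 363, 429.6 and 395 CPM in prkdc mutants, 291, 307 and 245 CPM in il2rga mutants and 240.5, 299 and 255 CPM in double mutants. The 6 mutant libraries lay below the other 6, with 307 CPM as the highest mutant value and 331 CPM as the lowest of the others. kdrl fell by 0.53 ± 0.12 (edgeR, adjusted p = 0.0115), to 69.5%. Groups of 6 lay apart in this direction for 6.74% of all genes tested. The decoy receptor flt1 stood at 64.7, 70.3 and 57.9 CPM in wild type fish, 56.2, 86.3 and 37.3 CPM in prkdc mutants, 43.3, 37.9 and 26.6 CPM in il2rga mutants and 26.9, 38.3 and 31.0 CPM in double mutants. Values with the mutation were under every wild type value but overlapped prkdc mutant 3. flt1 fell by 0.87 ± 0.21 (edgeR, adjusted p = 0.0122). The calls of kdrl and flt1 were lost without the 4 liver-rich libraries (edgeR, adjusted p = 0.0582 and 0.0776), with log2 fold changes of -0.65 ± 0.17 and -1.11 ± 0.33.

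The junction gene cdh5 fell as well. Its level was 208, 176 and 235 CPM in wild type fish, 343, 211 and 301 CPM in prkdc mutants, 103, 143 and 120.4 CPM in il2rga mutants and 106, 126 and 174 CPM in double mutants. All 6 mutant libraries lay below all 6 others, as for 6.74% of all genes tested, with double mutant 3 at 174 CPM next to wild type 2 at 176 CPM. cdh5 fell by 0.92 ± 0.17 (edgeR, adjusted p = 0.00439), to 53.0%. Without the 4 liver-rich libraries its log2 fold change was -0.74 ± 0.23 (edgeR, adjusted p = 0.0873).

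The 2 angiopoietin receptor genes were less clear. tie1 stood at 123, 96.2 and 155 CPM in wild type fish, 177, 112 and 192 CPM in prkdc mutants, 129, 80.5 and 63.6 CPM in il2rga mutants and 68.8, 85.9 and 98.7 CPM in double mutants. Both kinds of libraries overlapped, through il2rga mutant 1 and wild type 2. tie1 fell by 0.69 ± 0.21 (edgeR, adjusted p = 0.0341). That call was lost without wild type 1 or 3, prkdc mutant 1 or 3, il2rga mutant 2 or 3, or double mutant 1 or 2 (edgeR, adjusted p = 0.0549 to 0.0829, log2 fold change -0.70 to -0.57). tek stood at 55.3, 53.2 and 49.5 CPM in wild type fish, 40.2, 39.6 and 44.0 CPM in prkdc mutants, 68.9, 54.1 and 38.9 CPM in il2rga mutants and 27.6, 34.0 and 33.9 CPM in double mutants. Its lowest group was the double mutant and its widest the il2rga mutant. Its log2 fold change with the il2rga mutation was -0.17 ± 0.14, which did not pass (edgeR, adjusted p = 0.404).

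The secreted proteins went separate ways. egfl7 stood at 14.9, 11.1 and 12.3 CPM in wild type fish, 10.99, 8.62 and 10.8 CPM in prkdc mutants, 25.8, 22.9 and 21.3 CPM in il2rga mutants and 14.0, 17.8 and 15.6 CPM in double mutants. Every il2rga mutant lay above all other libraries, while double mutant 1 lay below wild type 1. egfl7 rose by 0.75 ± 0.14 (edgeR, adjusted p = 0.00456), a level 1.69-fold that of the libraries without the mutation. Without the 4 liver-rich libraries the log2 fold change was 0.68 ± 0.20 (edgeR, adjusted p = 0.0766). vwf stood at 80.2, 43.6 and 67.5 CPM in wild type fish, 44.1, 39.8 and 68.5 CPM in prkdc mutants, 61.3, 47.3 and 44.5 CPM in il2rga mutants and 18.8, 26.0 and 16.5 CPM in double mutants. The double mutants lay below all 9 other libraries, which overlapped one another. The shares of all genes with 1 genotype set apart from the other 9 libraries, as for egfl7 and vwf, were not counted. vwf fell by 0.82 ± 0.20 with the il2rga mutation on average (edgeR, adjusted p = 0.0151). Without the 4 liver-rich libraries its log2 fold change was -1.07 ± 0.33 (edgeR, adjusted p = 0.0827).

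Zebrafish thrombocytes, the nucleated counterparts of platelets, also express vwf. The 8 thrombocyte genes, none of them at 0 counts in all wild type libraries, had a summed level of 297 to 557 CPM in wild type. It was 255 to 382 CPM in prkdc mutants, 313 to 518 CPM in il2rga mutants and 216 to 546 CPM in double mutants. Double mutant 3 had the lowest vwf of all libraries and, at 546 CPM, the highest thrombocyte sum of its group. In double mutants against wild type, 0 of the 8 thrombocyte genes fell and 1, the clotting factor gene f5, rose, where 7.51% of all genes were called lower and 6.8% higher. The median log2 fold change of the 8 was -0.18 there. f5 alone stood at 29.6 to 56.4 CPM in wild type, and at 182, 107 and 75.8 CPM in double mutant 1 to 3. The sums that include f5 were 346, 216 and 546 CPM in double mutant 1 to 3, so they lean on the gene that rose. The part of thrombocytes in the vwf result was not tested.

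The transcription factor fli1a did not pass in any comparison of the edgeR fit. Among the alternative fits, limma voom called fli1a lower in double against prkdc mutants (limma voom, adjusted p = 0.048). It stood at 102, 97.1 and 108 CPM in wild type fish, 156, 83.8 and 138 CPM in prkdc mutants, 105, 85.7 and 146 CPM in il2rga mutants and 62.3, 76.0 and 127 CPM in double mutants. Its spread within each mutant group covered the wild type range. Its log2 fold change with the il2rga mutation was -0.19 ± 0.22 (edgeR, adjusted p = 0.532).

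The scavenger receptor stab2 was the most variable of the 10. It stood at 75.3, 69.4 and 102 CPM in wild type. Of the prkdc mutants, animals 1 and 2 had 109.5 and 74.1 CPM and animal 3 had 387 CPM. It was 525, 935 and 183 CPM in il2rga mutant 1 to 3, and 550.3, 632 and 82.5 CPM in double mutant 1 to 3. Double mutant 3 lay within the wild type range, and prkdc mutant 3 lay above il2rga mutant 3. stab2 rose by 1.94 ± 0.59 (edgeR, adjusted p = 0.0344). That call was lost without any 1 of wild type 1 to 3, prkdc mutant 1 or 2, il2rga mutant 1 or 2, or double mutant 1 or 2 (edgeR, adjusted p = 0.0527 to 0.0796, log2 fold change 1.63 to 2.03).

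The 4 libraries with most stab2 were also the 4 with most liver transcripts. The mean of the 15 tested liver genes was 6.43 and 7.71 log2 CPM in il2rga mutant 1 and 2, and 9.22 and 7.10 log2 CPM in double mutant 1 and 2. It was 2.22 log2 CPM in il2rga mutant 3, 5.78 log2 CPM in double mutant 3 and 1.40 to 2.81 log2 CPM in wild type and prkdc mutants. The orders did not match throughout, since double mutant 3 had raised liver transcripts with stab2 at 82.5 CPM, and prkdc mutant 3 had the lowest liver mean with stab2 at 387 CPM. Without the 4 libraries the log2 fold change of stab2 was -0.02, and with the liver mean as a covariate it was -0.07. In mammals the liver sinusoid is a main site of this receptor. Whether liver tissue contributed to the stab2 counts was not tested. kdr stood at 43.4 CPM in il2rga mutant 3, whose liver mean lay within the range of wild type and prkdc mutants. The summed liver level of that library, 275 CPM, lay above their 137 to 219.6 CPM. The call of kdr was lost with the liver covariate, as given above, and the part of liver transcripts in it was not tested further.

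**Figure D2:**
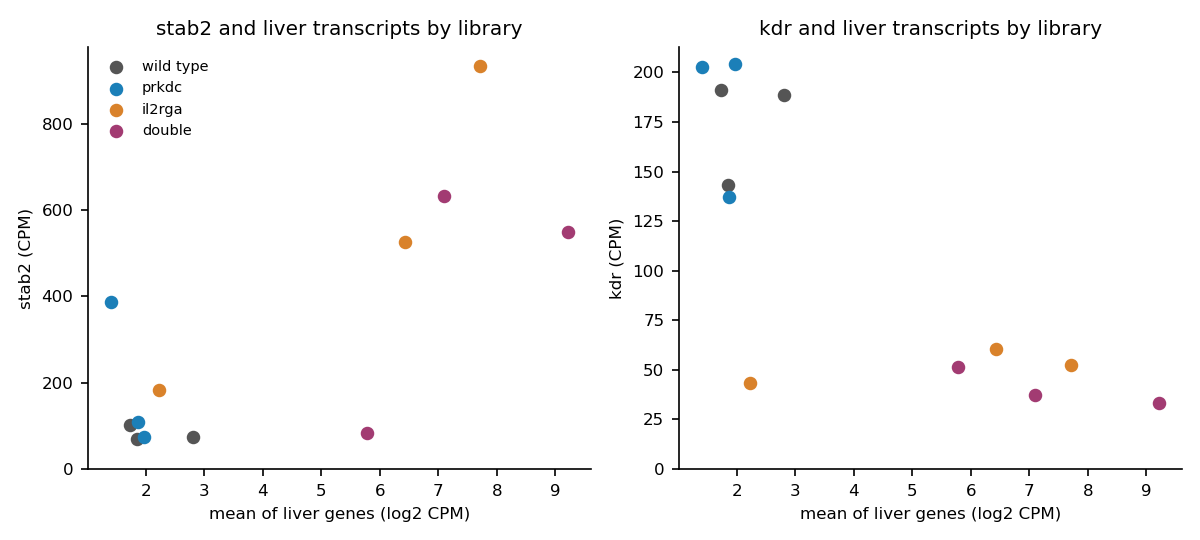
Level of stab2 (left) and kdr (right) in CPM against the mean log2 CPM of 15 liver genes, with 1 point per library. The 4 libraries with a liver mean of 6.43 or more have the highest stab2, 525 CPM or more. kdr is at 60.7 CPM or less in all 6 libraries with the il2rga mutation.

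The effect of il2rga loss was then read in each prkdc background, from comparisons that share no library. Both showed the fall of kdr. In il2rga mutants against wild type, kdr fell by 1.74 ± 0.24 (edgeR, adjusted p = 0.00585), to 29.9%, and in double against prkdc mutants it fell by 2.16 ± 0.24 (edgeR, adjusted p = 0.00419), to 22.4%. Both calls were lost without the 4 liver-richest libraries, a fit that left 1 library in each of the groups with the il2rga mutation. They were also lost with the liver covariate (edgeR, adjusted p = 0.0742 and 0.186). Over all alternative fits the log2 fold change of kdr ran from -2.01 to -1.61 in il2rga mutants against wild type. In double against prkdc mutants it ran from -2.39 to -1.81. In il2rga mutants 1 gene of the 10 fell and 1 rose, egfl7 by 0.87 ± 0.20 (edgeR, adjusted p = 0.0339), where 3.59% of all genes were called lower and 2.22% higher. Without wild type 1, 2 or 3, prkdc mutant 1 or 3, or il2rga mutant 1 or 2, egfl7 did not pass there (edgeR, adjusted p = 0.0533 to 0.133, log2 fold change 0.74 to 0.99).

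In double against prkdc mutants, 4 of the 10 fell and 0 rose, where 6.86% of all genes were called lower and 7.93% higher. Beside kdr, vwf fell by 1.31 ± 0.29 (edgeR, adjusted p = 0.0207), cdh5 by 1.08 ± 0.25 (edgeR, adjusted p = 0.0222) and kdrl by 0.58 ± 0.17 (edgeR, adjusted p = 0.0474). cdh5 lost its call without prkdc mutant 1 or 3 or double mutant 1 (edgeR, adjusted p = 0.0612 to 0.0904, log2 fold change -1.04 to -0.92). vwf lost it without prkdc mutant 3 or double mutant 1 (edgeR, adjusted p = 0.0745 and 0.0817, log2 fold change -1.25 to -1.06). kdrl lost it without any 1 of 10 libraries, all but il2rga mutant 3 and double mutant 2 (edgeR, adjusted p = 0.0554 to 0.165). tie1, at -0.93 ± 0.30, did not pass in the main fit (edgeR, adjusted p = 0.0608). It was called lower by DESeq2, by limma voom, and by edgeR without il2rga mutant 1, where it had -0.92 (edgeR, adjusted p = 0.0475).

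In il2rga mutants against wild type, cdh5 had -0.76 ± 0.25, kdrl -0.47 ± 0.17 and vwf -0.32 ± 0.29, and none of these passed (edgeR, adjusted p = 0.0904, 0.13 and 0.528). stab2 had 2.73 ± 0.86 there and 1.15 ± 0.82 in double against prkdc mutants (edgeR, adjusted p = 0.0875 and 0.354). The difference between the backgrounds was tested as an interaction, and 0 of the 10 genes and 0% of all genes passed in edgeR. Of all genes, 1123 had an unadjusted p under 0.05, DESeq2 called 49 and limma voom 0. The interaction of vwf was -0.99 ± 0.41 and that of stab2 -1.58 ± 1.15 on the log2 scale (edgeR, adjusted p = 0.788 and 0.802).

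**Figure D3:**
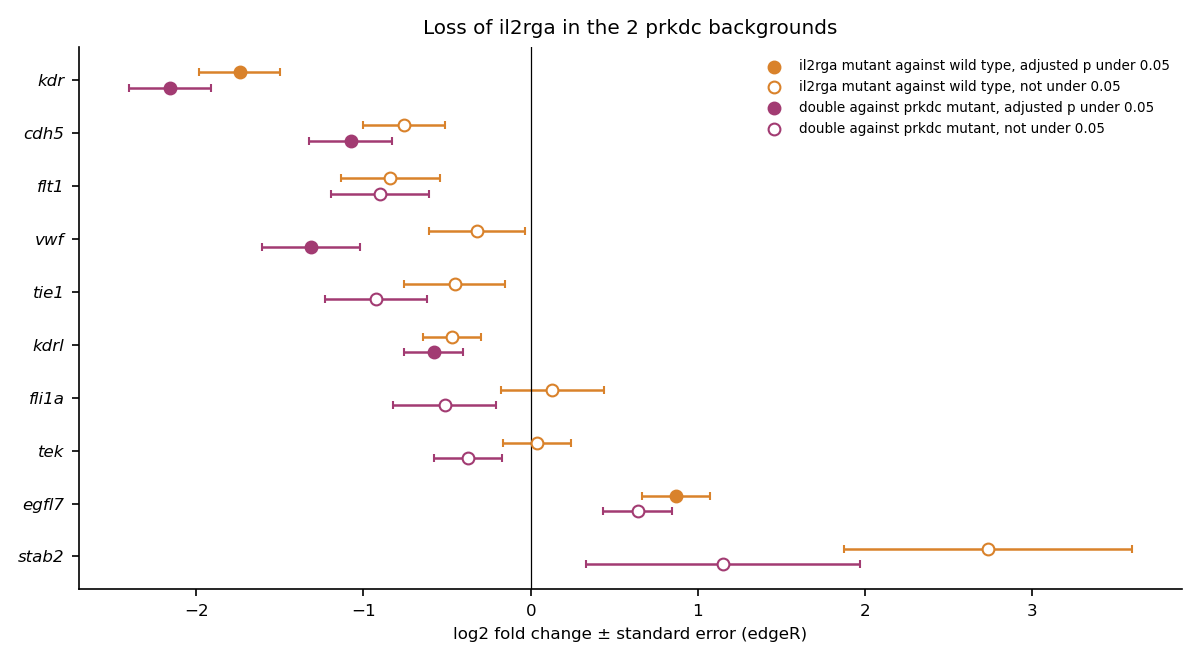
Log2 fold change ± standard error of each gene in il2rga mutants against wild type and in double against prkdc mutants, 3 libraries a group and no library shared. Filled points have an adjusted p under 0.05 in edgeR, and kdr is filled in both at -1.74 and -2.16.

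Loss of prkdc alone was compared with wild type next. None of the 10 genes was called, and the edgeR count over all genes was 0% of those tested, with 1052 at an unadjusted p under 0.05, 139 called by DESeq2 and 26 by limma voom. The 10 log2 fold changes ran from -0.35 to 1.21, with a median of 0.04. The VEGF receptor genes of the 10 lay close to wild type, with kdr at 0.06 ± 0.23, kdrl at 0.02 ± 0.17 and flt1 at -0.10 ± 0.29. cdh5 had the highest group mean of the study in prkdc mutants, 285 ± 67.7 CPM against 206 ± 29.7 CPM in wild type (SD, n = 3), and a change of 0.47 ± 0.24 on the log2 scale (edgeR, adjusted p = 0.944). The highest fold, 1.21 ± 0.82 for stab2, came with prkdc mutant 3 at 387 CPM.

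The genes tek, egfl7 and vwf had lower means with the prkdc mutation in both il2rga backgrounds, and they were singled out after their values were seen. For tek and egfl7 the prkdc mutants lay below all of wild type and the double mutants below all il2rga mutants, and for vwf the second held while prkdc mutants overlapped wild type. Groups of 3 lay apart in this direction for 7.61% of all genes in prkdc mutants against wild type and for 5.85% in double against il2rga mutants. Averaged over the il2rga genotype, the log2 fold change was -0.56 ± 0.14 for tek, -0.45 ± 0.14 for egfl7 and -0.82 ± 0.20 for vwf. None passed adjustment over all genes (edgeR, adjusted p = 0.415, 0.538 and 0.366), where 0.142% of genes were called lower. In double against il2rga mutants tek had -0.76 ± 0.21, egfl7 -0.56 ± 0.20 and vwf -1.32 ± 0.29 (edgeR, adjusted p = 0.483, 0.506 and 0.357). There edgeR called 0% of genes, with 1767 at an unadjusted p under 0.05, DESeq2 called 72, vwf among them, and limma voom 0.

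The double mutants were also set against wild type, a comparison that shares its controls with both single mutants. There 4 of the 10 genes fell and 0 rose, where 7.51% of all genes were called lower and 6.8% higher. kdr fell by 2.1 ± 0.24 (edgeR, adjusted p = 0.00248) and vwf by 1.64 ± 0.30 (edgeR, adjusted p = 0.00858), and both kept their call without any 1 library. Both lost it without the 4 liver-richest libraries, at -1.75 ± 0.34 and -1.94 ± 0.49 (edgeR, adjusted p = 0.0916 and 0.109), and with the liver covariate (edgeR, adjusted p = 0.145 and 0.183). flt1 fell by 1.00 ± 0.29 (edgeR, adjusted p = 0.0436) and tek by 0.73 ± 0.21 (edgeR, adjusted p = 0.0398). The call of flt1 was lost without any 1 of 9 libraries, all but prkdc mutant 2 and 3 and il2rga mutant 3 (edgeR, adjusted p = 0.0516 to 0.158, log2 fold change -1.15 to -0.89). That of tek was lost without wild type 1, 2 or 3, prkdc mutant 1 or 3, il2rga mutant 2, or double mutant 1 or 2 (edgeR, adjusted p = 0.0548 to 0.146, log2 fold change -0.77 to -0.63). Without double mutant 3, cdh5 and stab2 passed as well, at -0.86 and 2.81 (edgeR, adjusted p = 0.0364 and 0.0305).

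Ratios between the 10 genes within a library do not depend on how libraries are scaled, nor on how much endothelial RNA a library holds if all its genes rise and fall alike. Each of the other 9 genes was therefore set against cdh5, a reference chosen after the values were seen. The 6 libraries with the il2rga mutation were compared with the 6 without it by an exact permutation test within each prkdc background, 2-sided, with 400 arrangements and a smallest possible p of 0.005. The ratios of kdr, egfl7, tek, fli1a and stab2 to cdh5 differed, and those of kdrl, vwf, tie1 and flt1 did not pass. cdh5 itself had a log2 fold change of -0.92, so a gene that does not change stands higher against it. tek and fli1a, at -0.17 and -0.19, did not pass in edgeR, and their higher ratios are no evidence that their own levels changed.

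The log2 ratio of kdr to cdh5 was -0.24 ± 0.09 in wild type, -0.65 ± 0.64 in prkdc mutants, -1.22 ± 0.41 in il2rga mutants and -1.72 ± 0.05 in double mutants (SD, n = 3). Its difference with the il2rga mutation was -1.03 (exact permutation, p = 0.005, 0.0112 adjusted over 9 ratios). prkdc mutant 1, at -1.32, overlapped the mutant libraries, of which il2rga mutant 1 was highest at -0.75. The ratio of egfl7 to cdh5 was 1.66 log2 units higher (exact permutation, p = 0.005, adjusted 0.0112), with -4.93 to -3.78 in the libraries without the mutation and -3.46 to -1.98 in those with it. Those ranges did not overlap. The ratio of tek to cdh5 was 0.73 higher and that of fli1a 0.70 higher (exact permutation, p = 0.005, adjusted 0.0112 each), and for fli1a the ranges were -1.33 to -0.85 and -0.77 to 0.27. That of stab2 was 2.68 higher (exact permutation, p = 0.01, adjusted 0.018).

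Differences for the other ratios to cdh5 were 0.39 for kdrl, 0.22 for tie1, 0.13 for vwf and 0.07 for flt1 (exact permutation, adjusted p = 0.0975, 0.424, 0.731 and 0.825). Against kdrl as the reference, the difference was -1.42 for kdr and 1.27 for egfl7 (exact permutation, p = 0.005 each). For tek and stab2 it was 0.34 and 2.29 (exact permutation, p = 0.01 and 0.015, adjusted 0.03 and 0.034). kdrl itself had a log2 fold change of -0.53, so the limit given for ratios to cdh5 holds for tek here too. The difference was 0.31 for fli1a, which did not pass against kdrl (exact permutation, p = 0.32, adjusted 0.36).

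**Figure D4:**
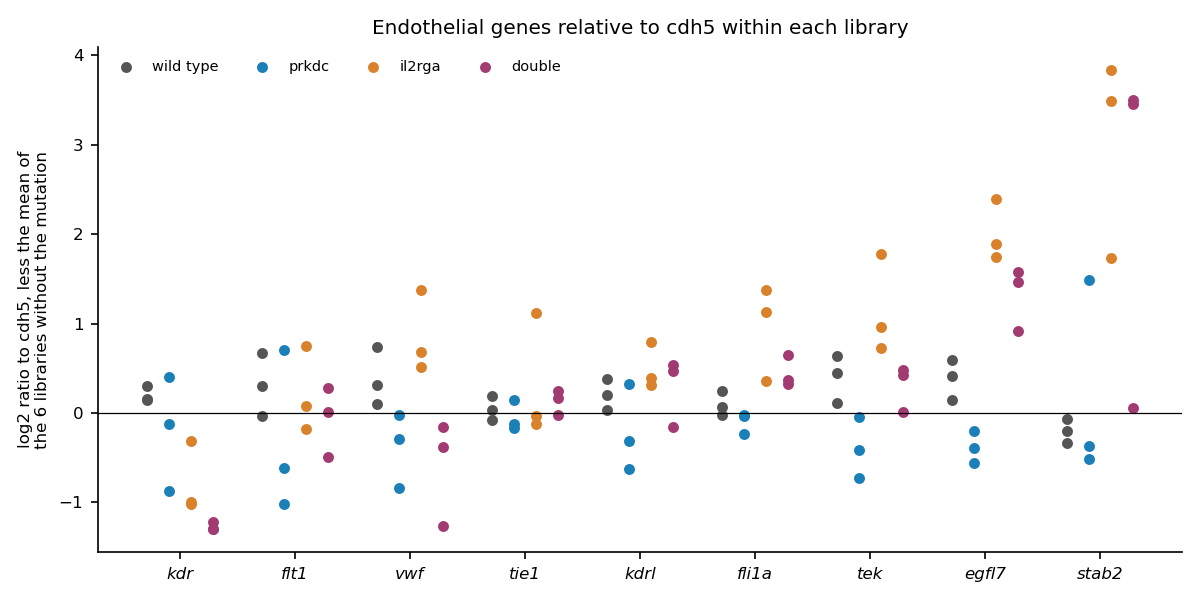
Log2 ratio of each gene to cdh5 in every library, less the mean of the 6 libraries without the il2rga mutation, by genotype. Points are single animals, and the double mutants lie lowest for kdr, while all 6 libraries with the mutation lie above the others for egfl7 and fli1a.

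The rest of the vessel programme was read from 7 endothelial lists, with 70 tested genes beyond the 10. All lists were chosen with earlier results of these data known. Their shares are therefore set beside those of all genes as description only, and are no independent support. With the il2rga mutation 17 of the 70 fell and 6 rose, 24.3% and 8.57%, where 13.3% and 14.4% of all genes did. Their median log2 fold change was -0.12, against 0.05 for all genes. With prkdc loss alone 0 of the 70 were called. In il2rga mutants against wild type 4 of the 70 fell and 0 rose, where 3.59% of all genes were called lower and 2.22% higher. In double against prkdc mutants 11 fell and 0 rose, where 6.86% and 7.93% of all genes were called. Genes of these lists and of the mural cell list below were read in the main fit only. Their calls were not checked in the liver fits, in the other alternatives or with single libraries left out. Where a gene of these lists lay lower in all 6 libraries with the mutation than in all others, 6.74% of all genes tested did so.

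Among VEGF ligands and co-receptors, 1 of 5 tested genes fell, where 13.3% of all genes did. The ligand gene vegfba, which codes for a VEGF-B, stood at 39.5, 41.3 and 47.7 CPM in wild type, then 45.8, 40.5 and 55.5 CPM in prkdc mutants. It was 19.96, 15.6 and 12.8 CPM in il2rga mutants and 19.5, 20.8 and 15.3 CPM in double mutants, below all others. vegfba fell by 1.38 ± 0.15 (edgeR, adjusted p = 0.000407). vegfc, nrp1b, plxnd1 and flt4 had -0.38, -0.45, -0.12 and -0.10 and did not pass.

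In the angiopoietin and BMP list, 2 of 7 fell, where 13.3% of all genes did. The phosphatase gene ptprb, whose product VE-PTP acts on TIE2 and VE-cadherin, fell by 0.98 ± 0.14 (edgeR, adjusted p = 0.0012). It stood at 156 to 189 CPM in wild type, 179 to 194 CPM in prkdc mutants, 82.1 to 135 CPM in il2rga mutants and 69.1 to 88.7 CPM in double mutants, with no overlap between libraries with and without the mutation. The ligand angpt4 fell by 1.46 ± 0.36 (edgeR, adjusted p = 0.0134), with 4.20 to 10.5 CPM in libraries without the mutation and 1.06 to 4.74 CPM in those with it.

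Of 8 arterial and Notch genes, 4 fell and 1 rose, where 13.3% and 14.4% of all genes did. In il2rga mutants against wild type 0 of the 8 were called, where 3.59% of all genes were lower and 2.22% higher. In double mutants against wild type it was also 0, where 7.51% were lower and 6.8% higher. In double against prkdc mutants 3 fell, where 6.86% of all genes did. The Notch ligands jag1b and jag2b fell by 0.81 ± 0.19 and 0.76 ± 0.17 over 6 against 6 libraries (edgeR, adjusted p = 0.0116 and 0.00808). The netrin receptor unc5b fell by 1.12 ± 0.30 (edgeR, adjusted p = 0.0193). For jag1b the levels were 26.9 to 31.0 CPM in wild type and 41.1 to 45.5 CPM in prkdc mutants. They were 16.6 to 21.8 CPM in il2rga mutants and 12.2 to 28.4 CPM in double mutants, of which double mutant 3 lay within the wild type range. The Notch target hey2, an arterial transcription factor, rose by 1.29 ± 0.41 (edgeR, adjusted p = 0.0386). It stood at 3.00 to 5.57 CPM in the 4 liver-richest libraries, while il2rga mutant 3 (1.49 CPM) and double mutant 3 (1.37 CPM) lay within the 0.969 to 1.92 CPM of the libraries without the mutation. Kidney epithelium also uses Notch ligands, so these transcripts need not come from vessels.

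Of 17 junction and surface genes, 4 fell and 2 rose, where 13.3% and 14.4% of all genes did. heg1 and ccm2, which encode a receptor and an adaptor of the cerebral cavernous malformation pathway at endothelial junctions, fell by 1.34 ± 0.14 and 0.60 ± 0.14 (edgeR, adjusted p = 0.000322 and 0.0113). For heg1 the levels were 75.6, 86.2 and 92.9 CPM in wild type fish, 67.3, 85.2 and 58.0 CPM in prkdc mutants, 38.9, 34.4 and 27.0 CPM in il2rga mutants and 27.2, 29.3 and 27.3 CPM in double mutants. The mutant libraries lay below all others. podxl, a surface mucin shared by endothelium and podocytes, fell by 0.63 ± 0.16 (edgeR, adjusted p = 0.0179), and nphs1, the podocyte slit protein nephrin, fell by 0.83 ± 0.23 (edgeR, adjusted p = 0.022). Of the 5 podocyte genes tested 2 fell. plvapb, a protein of the diaphragms of fenestrated endothelium, rose by 0.66 ± 0.15 (edgeR, adjusted p = 0.0111).

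Of 16 endothelial transcription factors, 3 fell and 1 rose, 18.8% and 6.25%, where 13.3% and 14.4% of all genes did. ets1 fell by 0.74 ± 0.20, the flow-responsive klf2a by 0.59 ± 0.18, and klf4 by 1.08 ± 0.33 (edgeR, adjusted p = 0.0212, 0.0322 and 0.0304). klf4 was low throughout, at 2.69 to 3.90 CPM in wild type and 1.56 to 2.18 CPM in prkdc mutants. It was 1.17 to 3.15 CPM in il2rga mutants and 0.611 to 0.800 CPM in double mutants. With prkdc loss over 6 against 6 libraries klf4 had -1.01 ± 0.33, which did not pass (edgeR, adjusted p = 0.538). klf2a was lower in the double mutants, with -1.03 ± 0.26 against prkdc mutants, and had -0.15 ± 0.25 in il2rga mutants against wild type (edgeR, adjusted p = 0.0266 and 0.762). etv2, which starts the endothelial lineage in the embryo, rose by 0.61 ± 0.18 (edgeR, adjusted p = 0.0271). Its levels were 11.57 to 16.62 CPM in wild type and 13.3 to 14.6 CPM in prkdc mutants. It stood at 17.6 to 31.9 CPM in the 4 liver-richest libraries. il2rga mutant 3, at 16.59 CPM, and double mutant 3, at 15.7 CPM, lay within the range of the libraries without the mutation.

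Among venous, lymphatic and scavenger genes, to which stab2 belongs by function, 2 of 13 fell and 1 rose. These were 15.4% and 7.69%, where 13.3% and 14.4% of all genes did. The venous receptor ephb4a and the integrin itga9 fell by 0.91 ± 0.27 and 1.05 ± 0.29 (edgeR, adjusted p = 0.0288 and 0.0226). The lysosomal protease ctsla, which many cell types express, rose by 0.74 ± 0.18 (edgeR, adjusted p = 0.0137). The paralogue stab1 had -0.35, and the hyaluronan receptors lyve1a and lyve1b 0.96 and 0.16, and these 3, named after their values were seen, did not pass (edgeR, adjusted p = 0.295, 0.136 and 0.572).

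Of 6 channel and G protein-coupled receptor genes, calcrla fell and s1pr1 rose, 16.7% each, where 13.3% and 14.4% of all genes did. calcrla encodes the receptor for adrenomedullin. It stood at 19.96, 16.3 and 23.8 CPM in wild type fish, 15.7, 20.8 and 21.5 CPM in prkdc mutants, 6.30, 5.87 and 6.59 CPM in il2rga mutants and 3.18, 4.50 and 7.33 CPM in double mutants. The mutant libraries lay below all others, and calcrla fell by 1.82 ± 0.21 (edgeR, adjusted p = 0.000456). s1pr1, a receptor for sphingosine 1-phosphate, rose by 1.05 ± 0.31 (edgeR, adjusted p = 0.0293). It stood at 11.8 to 22.2 CPM in the 4 liver-richest libraries. il2rga mutant 3, at 7.87 CPM, and double mutant 3, at 5.19 CPM, lay within the 4.15 to 8.39 CPM of the libraries without the mutation. Of 9 mural cell genes, 2 fell and 1 rose, where 13.3% and 14.4% of all genes did. cspg4 and pdgfrb fell by 2.22 ± 0.39 and 1.29 ± 0.33 (edgeR, adjusted p = 0.00328 and 0.0171), and rgs5b rose by 1.38 ± 0.40 (edgeR, adjusted p = 0.028). cspg4 was low throughout, at 0.30 to 2.03 CPM with the mutation and 2.98 to 5.02 CPM without it. pdgfrb in il2rga mutant 1, at 36.8 CPM, lay within the 25.3 to 39.5 CPM of wild type. rgs5b in double mutant 3, at 6.72 CPM, lay within the 3.90 to 15.5 CPM of wild type.

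**Figure D5:**
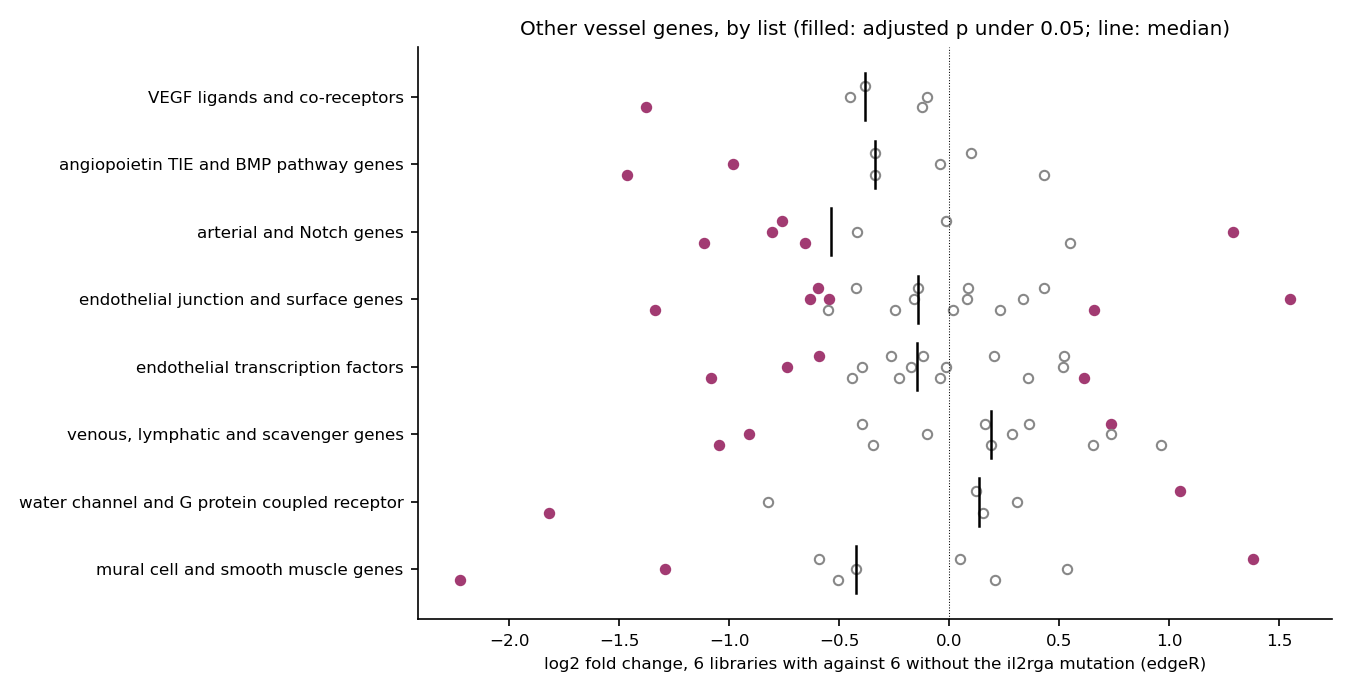
Log2 fold change of each tested gene of 7 endothelial lists and 1 mural cell list, 6 libraries with against 6 without the il2rga mutation. Filled points have an adjusted p under 0.05 in edgeR, and short lines are list medians. Most genes lie between -1 and 1, and vegfba, angpt4, heg1, calcrla and cspg4 lie among the lowest of their lists.

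The genes nearest in pattern to cdh5 or kdrl were found by the root mean square difference of centred log2 CPM over the 12 libraries. The search covered 14751 genes with a symbol other than a clone name and a mean of at least 1 CPM. For cdh5 the nearest were FAM20C, P3H2, MVB12B, LPP and ZNF609, at 0.197 to 0.219 log2 units. For kdrl they were APC, ITM2B, VGLL4, SLC16A1 and MUL1, at 0.103 to 0.126. None of the other 9 endothelial genes was among them. Among the 10, tie1 was nearest to cdh5, at 0.331 and rank 251 of those 14751 genes. flt1 was nearest to kdrl, at 0.329 but only rank 1748.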

How the data were processed

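The deposited file held raw counts per gene for 12 libraries. Per the submitters' processing notes, the authors used STAR, Picard and featureCounts with build GRCz10, with versions not stated. The kit was directional, per the labels' protocols. Counts were tested with edgeR 4.0.16 in R 4.3.3 (filterByExpr, TMM, robust quasi-likelihood fit of 4 groups over 12 libraries, Benjamini-Hochberg threshold 0.05), after checks on simulated data. CPM used TMM-scaled library sizes, and log2 CPM a prior count of 2. Alternatives were DESeq2 1.42.0, limma 3.58.1 voom, other scalings and filters, a liver covariate, a replicate block, the compared groups alone and each library left out. Groups came from the genotype labels, and replicates were separate animals. The 10 genes and all lists were chosen with earlier results of these data known. Named genes were the 10, up to 4 called genes of each list by smallest p, and the 5 nearest to cdh5 and to kdrl. Gene lengths and sequences were not used here, so levels are not compared between genes.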

Additional observations from a re-analysis of the deposited data

Results flagged for a closer look

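Among the 6 libraries without the il2rga mutation, stab2 in prkdc mutant 3 stood far above the other 5, at 8.60 log2 CPM. It was 1 of 20 sets of 6 libraries examined for such a value, and chance flags about 1 in 20. In the same library the liver mean was 1.40 log2 CPM, the lowest of the 12, and no other of the 10 genes stood apart there by this measure.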

How the results depend on the processing

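Over 1261 single-gene values from the alternatives, 1112 kept direction and side of the threshold, 106 lost a call, 21 gained one and 22 changed sign. The 1112 include genes not called in the main fit that stayed uncalled and so had no call to lose. The share of calls that were lost is therefore larger than 106 of 1261. The cause was not tested in any of these. In il2rga mutants against wild type, DESeq2 and limma voom each called 2 of the 10 genes lower and 2 higher. There the liver covariate and the fit without the 4 liver-richest libraries each called 0 lower and 0 higher, and 0 were higher without TMM factors, without the count filter or with the replicate block. For double mutants against wild type the count lower was 2 without the count filter and 0 in both liver fits, and DESeq2 called 1 higher. For double against prkdc mutants it was 0 in both liver fits and 1 with the compared groups alone, and DESeq2 called 1 higher. In double against prkdc mutants DESeq2 and limma voom kept the 4 genes of the main fit as lower. There DESeq2 added flt1 and tie1 as lower, and limma voom added fli1a and tie1. In double mutants against wild type both added kdrl as lower. limma voom there added cdh5 as lower and lost flt1. DESeq2 called 1 gene lower, vwf, in double against il2rga mutants and also with prkdc loss over 6 against 6 libraries. With il2rga loss over 6 against 6 libraries, 0 were lower with the liver covariate and 1, kdr, without the 4 libraries. There 1 was higher without the count filter or with the replicate block, and 0 in both liver fits.

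Leaving out 1 library at a time gave 1 to 2 genes lower and 0 to 2 higher in il2rga mutants, 2 to 4 lower and 0 to 1 higher in double mutants against wild type, 1 to 4 lower in double against prkdc mutants, and 1 to 2 higher with il2rga loss. It also moved log2 fold changes across 0 in prkdc mutants for kdr (-0.0753 to 0.22), kdrl (-0.0906 to 0.13) and flt1 (-0.48 to 0.16), and in il2rga mutants for tek (-0.18 to 0.24) and fli1a (-0.0931 to 0.29). In il2rga mutants tek was -0.17 with the liver covariate and -0.44 without the 4 libraries, and fli1a -0.0295 in limma voom. In the same liver fits fli1a was 0.65 and 0.31 in double mutants against wild type, 0.42 and 0.0156 against prkdc mutants, and 0.55 and 0.26 with il2rga loss. There stab2 was -1.27 and -1.20 in double against prkdc mutants and -0.071 and -0.0228 with il2rga loss.

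Without the 4 libraries the ratios to cdh5 that had passed were -1.16 for kdr, 1.40 for egfl7, 0.37 for tek, 1.01 for fli1a and 0.90 for stab2, and the few arrangements left could not pass (exact permutation, adjusted p = 0.188 to 0.225). The ratios of vwf, tie1 and flt1 to cdh5 were then -0.29, -0.0759 and -0.34. Over all 12 libraries, with kdrl in place of cdh5 as the reference, they were -0.26, -0.17 and -0.32, and that of fli1a was 0.31. Leaving out 1 library gave -0.000313 to 0.30 for vwf and -0.10 to 0.33 for flt1.

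Pairing by replicate number was not shown, though these correlations cannot exclude it. Of 18 pairs of same-numbered libraries, 6 had a correlation above 0.1 (median 0.0657, against -0.017 for other pairs). With the replicate block, egfl7 in il2rga mutants (0.87), tek in double mutants against wild type (-0.72), kdrl in double against prkdc mutants (-0.58) and stab2 with il2rga loss (1.84) lost their call (edgeR, adjusted p = 0.058, 0.0681, 0.0735 and 0.115). Over all genes, calls ran from 160 to 1565 in il2rga mutants and from 3461 to 5653 with il2rga loss when 1 library was left out, against 1066 and 5087 with all libraries. The lowest count behind any of the 10 genes was 79.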
